A study of Homo sapiens with 15 samples.

Results

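The genes described here are 3 receptors of the ERBB family (EGFR, ERBB2 and ERBB3) and 7 genes that encode ligands of these receptors (AREG, EREG, HBEGF, TGFA, BTC, EPGN and NRG1). They were taken by symbol, and all 10 were found among the 60721 genes of the count table and passed the filter on low counts that left 17457 genes for testing. ERBB receptors are tyrosine kinases of the cell surface. EGFR binds AREG, EREG, HBEGF, TGFA, BTC and EPGN, ERBB3 binds NRG1, and ERBB2 has no known ligand of its own and signals as a partner of the other receptors. The ligands are made as membrane proteins, and those of EGFR are released by proteases of the ADAM family. Mammary epithelial cells depend on EGFR signals to grow in culture, and EGFR acts through RAS, which the NF1 protein (neurofibromin, a GTPase-activating protein) turns off.

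Poly(A) RNA was sequenced from 15 libraries of MCF10, a human breast epithelial cell line. The 5 genotypes had 3 libraries each: parental cells, cells with an empty vector, and cells with NF1 mutated through guide RNA 1, through guide RNA 2, or through guides 1 and 2. No genotype was treated, and all grew in a medium that itself held EGF at 20 ng/mL, with horse serum, hydrocortisone, cholera toxin and insulin. The labels call the libraries biological replicates but do not say whether they came from separate cultures or whether an edited line is 1 clone, so p-values measure the spread between these libraries. In bulk RNA, fewer cells of a type and less RNA per cell cannot be told apart.

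Totals lay between 46129559 and 78976917 counts per library. NF1 RNA, which checks the labels, was at most 51.3 CPM (the count scaled to a common library total) in the 9 edited libraries and at least 115 CPM in the 6 unedited ones, without overlap. Guide 2 replicate 2 stood apart from its genotype: its score on the first principal component was 91.9, against -46.0 and -47.8 in guide 2 replicates 1 and 3, although its NF1 level was as low as theirs. Its 5 basal keratinocyte markers summed to 8861 CPM against 968 to 1045 CPM in those libraries, and its 5 mesenchymal markers to 3735 CPM against 13900 to 15590 CPM. The leukocyte markers summed to at most 0.130 CPM, with CD3E at 0 in every library. Results that rest on guide 2 replicate 2 are therefore given with and without it. Parental cells were also split on the first component, at 47.2, -25.2 and 23.4 in replicates 1, 2 and 3. Leaving out guide 2 replicate 2 thus does not remove all spread within genotypes along it. Comparisons with the empty vector share the same 3 control libraries.

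Promoter sequences are shown for HBEGF, the 1 member called by edgeR with all libraries, and for AREG and EREG, neighbours on chromosome 4. With all libraries, the highest was 2.62 times the lowest for AREG and 1.51 times for EREG, the least of the members. Without guide 2 replicate 2 these were 1.88 and 1.51 times, and ERBB2 was lower at 1.48. They are the bases just before the first annotated exon, 5′ to 3′ (RefSeq promoter table, GRCh38.p14). HBEGF is at chr5:140346632-140346853 on the minus strand, AREG at chr4:74444886-74445133 and EREG at chr4:74364895-74365142, both on the plus strand. Capitals mark TGACGTCA (the cAMP response element), TATAAA (the TATA box) and GGGCGG (the GC box), each searched on both strands.
HBEGF: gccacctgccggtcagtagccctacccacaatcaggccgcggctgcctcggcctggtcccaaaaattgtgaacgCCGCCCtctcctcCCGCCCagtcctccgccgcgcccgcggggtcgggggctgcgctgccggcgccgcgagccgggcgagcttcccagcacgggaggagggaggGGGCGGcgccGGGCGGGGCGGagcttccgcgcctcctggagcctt
AREG: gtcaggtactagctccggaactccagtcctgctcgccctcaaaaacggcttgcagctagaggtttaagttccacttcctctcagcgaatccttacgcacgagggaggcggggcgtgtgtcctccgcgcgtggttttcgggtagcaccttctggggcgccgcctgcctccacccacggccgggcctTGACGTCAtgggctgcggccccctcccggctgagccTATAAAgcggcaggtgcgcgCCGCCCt
EREG: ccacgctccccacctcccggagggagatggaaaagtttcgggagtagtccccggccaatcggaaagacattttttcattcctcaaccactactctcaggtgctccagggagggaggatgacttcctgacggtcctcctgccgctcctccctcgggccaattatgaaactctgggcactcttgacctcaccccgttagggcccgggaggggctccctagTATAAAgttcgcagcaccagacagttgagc
The HBEGF window held 5 GC boxes, of which 1 pair overlapped, and none of the other letters searched. AREG held 1 cAMP response element, 1 TATA box and 1 GC box, and EREG held 1 TATA box. Over 35116 RefSeq promoters read the same way for 250 bases, 1.65% held TGACGTCA, 10.7% held TATAAA and 42.6% held GGGCGG.  These matches describe the letters only.

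Per kilobase of exon, EGFR and AREG were the most abundant receptor and ligand in every genotype. Levels were divided by the length of all annotated exons of a gene, since counts rise with length. EGFR made up 84.6% of the summed receptor CPM per kb as the mean of the 15 libraries (range 79.4 to 93.5%), ERBB2 14.5% and ERBB3 0.995%. Among the ligands AREG made up 67.0% (range 59.4 to 76.2%) and EPGN (epigen, a low-affinity EGFR ligand) 25.2%. EREG followed with 3.76%, TGFA with 1.78%, HBEGF with 0.917%, NRG1 with 0.836% and BTC (betacellulin) with 0.493%. With the longest transcript as the length, the shares of EGFR, AREG and EPGN were 77.4%, 64.9% and 27.9%. Among the lower ligands, TGFA was 2.67% of the ligand sum in empty-vector cells and 0.667% in guide 1 cells, and HBEGF was 1.82% and 0.641%.

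**Figure D1:**
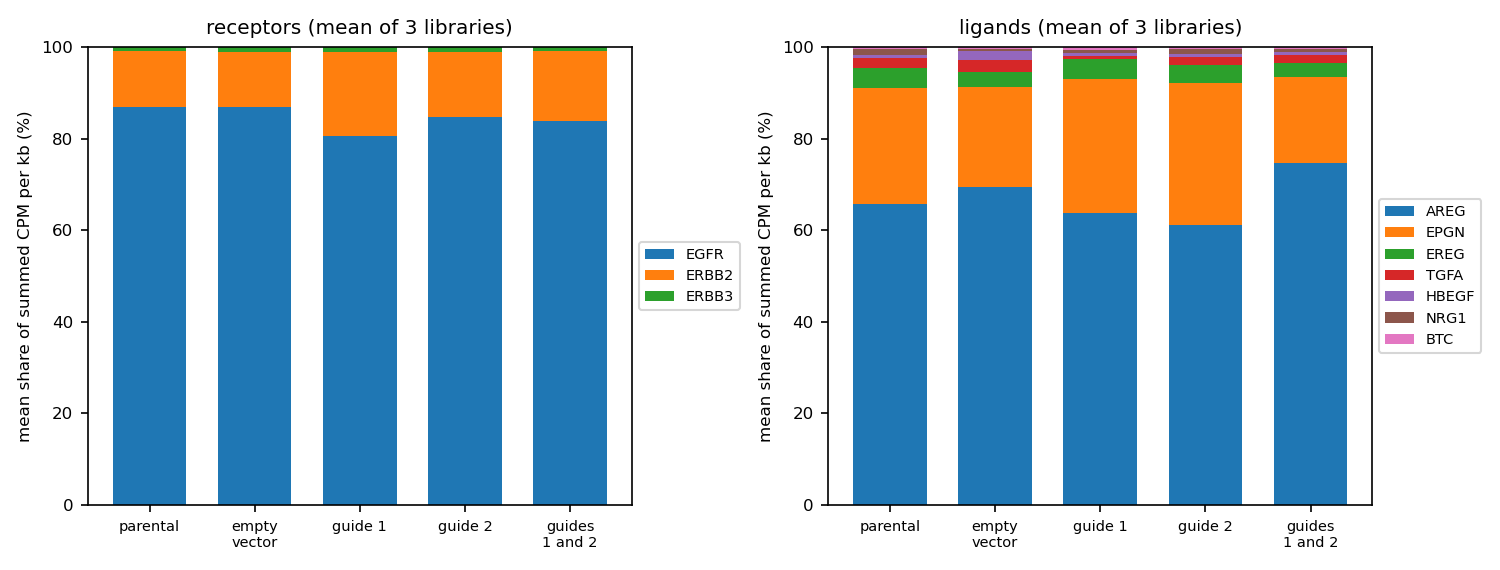
Mean share of each receptor (left) and each ligand (right) in the summed CPM per kilobase of exon of its family, in percent, for the 5 genotypes (mean of 3 libraries). EGFR and AREG hold most of each bar, with means over the 15 libraries of 84.6% and 67.0%.

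Of the receptors, EGFR (ENSG00000146648, chr7:55019021-55211628, plus strand, GRCh38) was measured at 367 to 927 CPM. Its levels in replicates 1, 2 and 3 were 724, 419 and 514 CPM in parental cells, 497, 538 and 560 CPM in empty-vector cells and 384, 383 and 393 CPM in guide 1 cells. They were 367, 927 and 397 CPM in guide 2 cells and 449, 438 and 404 CPM in cells with both guides. All guide 1 libraries, all libraries with both guides and 2 of 3 guide 2 libraries lay below every empty-vector library. So did unedited parental replicate 2, which at 419 CPM was also below replicates 1 and 2 with both guides. Guide 2 replicate 2 was the highest of the 15 and parental replicate 1 the next. In the edgeR quasi-likelihood fit of all libraries, guide 1 cells differed from empty-vector cells by -0.47 in log2 (SE 0.283, n = 3 per genotype), with a Benjamini-Hochberg adjusted p of 0.366, and EGFR was not called in any of the 11 comparisons. With guide 2 replicate 2 left out the value for guide 1 was -0.48 (edgeR adjusted p = 0.0325, SE 0.144). The antisense gene EGFR-AS1, which lies within EGFR, had mean levels of 0.0593 to 0.128 CPM, so it could add little to EGFR if strand was not used.

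ERBB2 (ENSG00000141736, chr17:39687914-39730426), the partner receptor, ran the opposite way to EGFR across libraries. Its levels were 52.0, 72.0 and 57.4 CPM in parental, 61.9, 62.3 and 55.1 CPM in empty-vector and 76.8, 72.2 and 69.3 CPM in guide 1 replicates 1, 2 and 3. They were 74.8, 46.1 and 72.0 CPM in guide 2 and 63.9, 63.7 and 66.0 CPM with both guides. Guide 2 replicate 2 was the lowest of the 15 libraries and parental replicate 1 the next lowest, which for EGFR were the highest. The Pearson correlation of log2 CPM of EGFR with ERBB2 was -0.952 over the 15 libraries and -0.922 without guide 2 replicate 2, a description over libraries that share genotype and the spread on the first component. ERBB3 (ENSG00000065361, chr12:56076799-56103505), the receptor with a weak kinase that pairs with ERBB2, was low at 3.09 to 5.87 CPM, with means of 4.92 ± 0.500 CPM in empty-vector cells and 3.42 ± 0.290 CPM with both guides (SD, n = 3). Neither ERBB2 nor ERBB3 was called in any comparison of the edgeR fit of all libraries. Among 7 alternative settings, 3 called ERBB2 for guide 1 and 3 called ERBB3 for both guides against the empty vector, with adjusted p down to 0.00107 and 0.0148 over the edgeR, DESeq2 and voom settings. For both genes these were voom, which gave guide 2 replicate 2 a sample weight of 0.052, and the settings that left that library out.

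**Figure D2:**
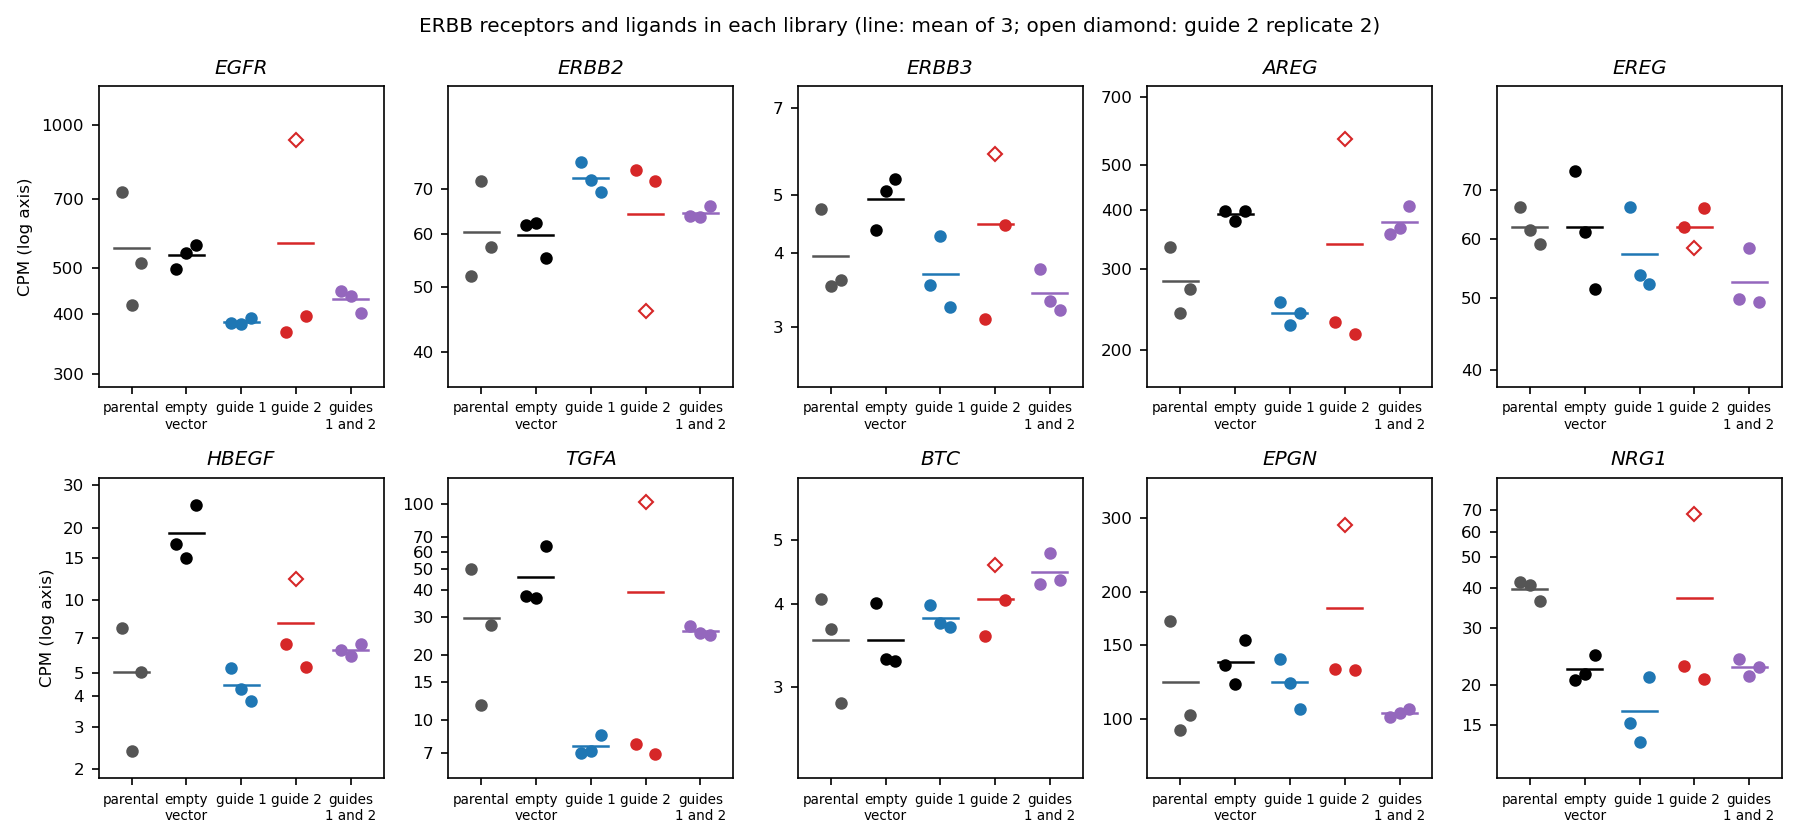
CPM of each of the 10 genes in every library (log axis), by genotype, with the mean of 3 libraries as a line and guide 2 replicate 2 as an open diamond. All 3 empty-vector libraries lie above the other 12 in HBEGF, and guide 2 replicate 2 is the highest library in 6 genes and the lowest in ERBB2.

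HBEGF (heparin-binding EGF-like growth factor, ENSG00000113070, chr5:140332843-140346631, minus strand) was the 1 member called in the edgeR fit of all libraries, and it was high in empty-vector cells. Replicates 1, 2 and 3 had 17.1, 15.0 and 24.9 CPM with the empty vector and 7.72, 2.38 and 5.07 CPM in parental cells. The edited lines had 5.23, 4.28 and 3.83 CPM (guide 1), 6.58, 12.3 and 5.32 CPM (guide 2) and 6.22, 5.88 and 6.58 CPM (both guides). The lowest empty-vector library, at 15.0 CPM, was above all 12 others, whose highest was 12.3 CPM in guide 2 replicate 2, and parental and edited cells overlapped. The mean was 19.0 ± 5.18 CPM in empty-vector cells, 4.27 times that of guide 1 cells (4.44 ± 0.713 CPM) and 3.76 times that of parental cells (5.05 ± 2.67 CPM; SD, n = 3 each).

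HBEGF fell in guide 1 cells against the empty vector, by 2.11 in log2 (edgeR adjusted p = 0.00976, SE 0.388; with the replicate number as a block, 0.0270). It was also lower in parental cells than with the empty vector, by -1.94 (edgeR adjusted p = 0.0164, SE 0.386). For guide 2 the value was -1.26 (edgeR adjusted p = 0.0854, SE 0.377) and for both guides -1.63 (edgeR adjusted p = 0.0610, SE 0.382), neither past the threshold of 0.05, although DESeq2 gave adjusted p of 0.0153 and 0.00127. Without guide 2 replicate 2, edgeR gave -1.71 (adjusted p = 0.00730, SE 0.363) for guide 2 and -1.65 (adjusted p = 0.00949, SE 0.314) for both guides. The guide 1 call was lost without guide 1 replicate 2 (edgeR adjusted p = 0.0562), and the parental call without empty-vector replicate 3 (0.0726), parental replicate 2 (0.0548) or parental replicate 3 (0.0621). Against parental cells no edited line was called in HBEGF: the edgeR log2 fold changes were -0.17 (edgeR adjusted p = 0.813, SE 0.378) for guide 1, 0.69 (edgeR adjusted p = 0.768, SE 0.378) for guide 2 and 0.31 (edgeR adjusted p = 0.841, SE 0.378) for both guides.

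TGFA (transforming growth factor alpha, ENSG00000163235, chr2:70447280-70554193, minus strand) had the widest range of the 10 genes with all libraries. Its highest library was then 14.69 times its lowest, against 10.44 times for HBEGF. Without guide 2 replicate 2 the range of TGFA was 9.18 times, below that of HBEGF at 10.44. Its levels were 50.1, 11.7 and 27.3 CPM in parental and 37.4, 36.5 and 63.7 CPM in empty-vector replicates 1, 2 and 3. They were 7.03, 7.13 and 8.45 CPM with guide 1, 7.66, 102 and 6.94 CPM with guide 2 and 27.1, 25.2 and 24.7 CPM with both guides. The guide 1 libraries and guide 2 replicates 1 and 3 were below every other library, and guide 2 replicate 2 was the highest of all at 13.97 times the mean of the other guide 2 libraries. Guide 1 cells stood at -2.62 in log2 relative to the control vector (edgeR adjusted p = 0.0921, SE 0.853), which did not pass, although 5 of 7 alternative settings called it. Of those settings, DESeq2 and the fit without the filter kept guide 2 replicate 2. Voom gave it a sample weight of 0.052, and the others left it out. In the fit that left out guide 2 replicate 2 it fell by 2.63 (edgeR adjusted p = 0.000633, SE 0.389), and the remaining guide 2 libraries fell by 2.68 (edgeR adjusted p = 0.00223, SE 0.458, n = 2). In that fit TGFA was higher with both guides than with guide 1 alone, by 1.75 (edgeR adjusted p = 0.0223, SE 0.381), and did not pass for both guides against the empty vector (-0.88, edgeR adjusted p = 0.177, SE 0.365).

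AREG (amphiregulin, ENSG00000109321, chr4:74445134-74455009) differed between edited lines past the threshold in edgeR only where guide 2 replicate 2 was left out. Replicates 1, 2 and 3 had 399, 379 and 399 CPM with the empty vector, 333, 241 and 271 CPM in parental cells and 254, 227 and 241 CPM with guide 1. Guide 2 had 230, 569 and 217 CPM, and both guides 357, 366 and 408 CPM. Guide 1, and guide 2 apart from replicate 2, lay below all empty-vector libraries, while cells with both guides overlapped the empty vector. All parental libraries also lay below the empty vector. No AREG comparison passed in the edgeR fit of all libraries, although 3 of 7 alternative settings called guide 1 against the empty vector. These were voom, where guide 2 replicate 2 had a sample weight of 0.052, and the settings without that library. The latter were the compared genotypes alone and the exclusion of 2 libraries, which was added after the data were seen. Without guide 2 replicate 2, AREG fell by 0.73 with guide 1 (edgeR adjusted p = 0.000460, SE 0.101) and by 0.84 with guide 2 (edgeR adjusted p = 0.000738, SE 0.116) against the empty vector, and was higher with both guides than with guide 1, by 0.64 (edgeR adjusted p = 0.00434, SE 0.101), or guide 2, by 0.75 (edgeR adjusted p = 0.00556, SE 0.115). In the same fit it was also lower in parental than in empty-vector cells, by -0.52 (edgeR adjusted p = 0.00525, SE 0.101). Against parental cells AREG did not pass there for guide 1 (-0.21, edgeR adjusted p = 0.165, SE 0.101) or guide 2 (-0.32, edgeR adjusted p = 0.114, SE 0.114). With both guides it was higher than in parental cells, by 0.43 (edgeR adjusted p = 0.0411, SE 0.101).

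NRG1 (neuregulin 1, a ligand of ERBB3, ENSG00000157168, chromosome 8) had its highest genotype mean in parental cells. That held with all libraries (39.6 CPM, against 37.2 CPM in guide 2) and without guide 2 replicate 2. Replicates 1, 2 and 3 had 41.7, 40.8 and 36.4 CPM in parental, 20.7, 21.6 and 24.8 CPM in empty-vector and 15.2, 13.3 and 21.2 CPM in guide 1 cells. Guide 2 had 22.9, 68.0 and 20.8 CPM and both guides 24.1, 21.2 and 22.8 CPM. The 3 parental libraries exceeded every other library except guide 2 replicate 2. With all libraries the log2 difference of parental from empty-vector cells was 0.79 (edgeR adjusted p = 0.222, SE 0.345) and did not pass. Without guide 2 replicate 2 it was 0.78 (edgeR adjusted p = 0.00301, SE 0.136), and guide 1 was lower than the empty vector by -0.46 (edgeR adjusted p = 0.0332, SE 0.137). Against parental cells, that fit gave -1.24 for guide 1 (edgeR adjusted p = 0.000351, SE 0.138) and -0.85 for guide 2 (edgeR adjusted p = 0.00945, SE 0.155). Both guides stood at -0.80 (edgeR adjusted p = 0.00905, SE 0.137).

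The other 3 ligands were EREG, BTC and EPGN. EREG (epiregulin, ENSG00000124882, chr4:74365143-74388751) was at 49.3 to 74.3 CPM and BTC (ENSG00000174808, chr4:74744759-74794686, minus strand) at 2.84 to 4.78 CPM, and neither was called in the edgeR fits with and without guide 2 replicate 2. EPGN (ENSG00000182585, chr4:74308473-74315307) was at 94.0 to 288 CPM, with its highest values in guide 2 replicate 2 and, at 171 CPM, in parental replicate 1. EPGN, EREG, AREG and BTC lie in that order within 486.2 kb of chromosome 4, with 49.8 kb between EPGN and EREG and 56.4 kb between EREG and AREG. The highest library was 3.07 times the lowest for EPGN, 1.51 times for EREG, 2.62 times for AREG and 1.69 times for BTC. Without guide 2 replicate 2 these were 1.82, 1.51, 1.88 and 1.69 times. Over the 15 libraries the Pearson correlation of log2 CPM of AREG was -0.155 with its neighbour EREG and 0.908 with TGFA, given as a description.

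In the order of genotype means, no neighbouring genotypes differed past the threshold in any member in the edgeR fit of all libraries. HBEGF ran from the empty vector through guide 2, both guides and parental cells to guide 1, and TGFA from the empty vector through guide 2, parental cells and both guides to guide 1. The order was empty vector, both guides, guide 2, parental and guide 1 for AREG, guide 2, parental, empty vector, both guides and guide 1 for EGFR, and parental, guide 2, both guides, empty vector and guide 1 for NRG1. Without guide 2 replicate 2, 4 steps passed: HBEGF from the empty vector to both guides, AREG from both guides to parental, TGFA from both guides to guide 1, and NRG1 from parental to both guides. The edgeR adjusted p of these steps were 0.00949, 0.0411, 0.0223 and 0.00905. The order of means also moved, and guide 2 became the lowest genotype for TGFA, AREG and EGFR, where its mean went from 38.8 to 7.30 CPM, from 339 to 224 CPM and from 564 to 382 CPM. It then ran from the empty vector through parental cells, both guides and guide 1 to guide 2 for TGFA, and from the empty vector through both guides, parental cells and guide 1 to guide 2 for AREG. For EGFR it was parental, empty vector, both guides, guide 1 and guide 2, for HBEGF empty vector, both guides, guide 2, parental and guide 1, and for NRG1 parental, both guides, empty vector, guide 2 and guide 1.

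**Figure D3:**
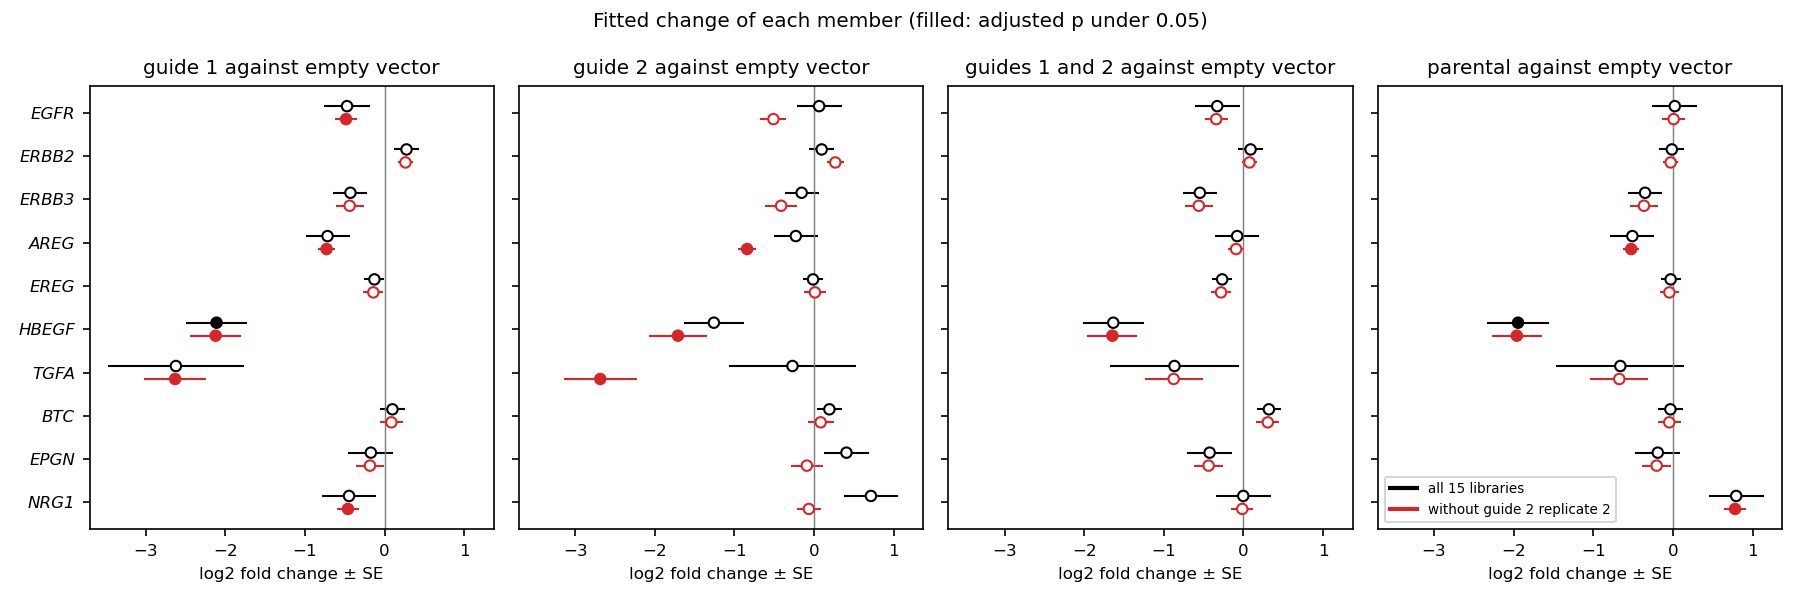
Fitted log2 fold change of each gene against the empty vector with its SE (bars), for guide 1, guide 2, both guides and parental cells, from all 15 libraries (black) and without guide 2 replicate 2 (red); filled points have an edgeR adjusted p under 0.05. HBEGF lies left of 0 in all 4 panels, from -2.11 to -1.26 with all libraries, and guide 2 moves most between the fits.

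Counted over the 10 genes with all libraries, 1 was called lower in guide 1 against the empty vector (HBEGF), where 4.57% of all tested genes were called lower. The median log2 fold change of the members was -0.44, beside 0.02 over all tested genes. In parental against empty-vector cells 1 was also called lower (HBEGF), against 2.84% of all genes. In guide 2 against the empty vector edgeR called 0 members (3.94% of all genes), with 1 at an unadjusted p under 0.05, while DESeq2 called 1 and limma voom with sample weights 5. Over all genes in this comparison, DESeq2 called 1373 and voom 5804. In both guides against the empty vector edgeR called 0 (0.962% of all genes), with 2 at an unadjusted p under 0.05, DESeq2 1 and voom 6. There DESeq2 called 754 of all genes and voom 4666. Here and below, counts at an unadjusted p are given without the share of all genes under the same cut. They therefore cannot be set against a background.

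Against parental cells edgeR called 0 members for each edited line, where 0.149% (guide 1), 0.0516% (guide 2) and 0.195% (both guides) of all genes were called. Members with an unadjusted p under 0.05 numbered 2, 0 and 2, DESeq2 called 1, 0 and 0, and voom 6, 6 and 3. Of all genes, DESeq2 called 657, 137 and 367 in these comparisons, and voom 9230, 5682 and 3725. Between the edited lines edgeR called 0 members in each of the 3 comparisons, with 0.0401% of all genes called for guide 1 against guide 2, 0.275% for both guides against guide 1 and 0.149% for both guides against guide 2. Unadjusted, 3, 1 and 1 members were under 0.05, DESeq2 called 0 in each, and voom 1, 6 and 5. Of all genes, voom called 3524, 8113 and 2650 in these comparisons. Comparing the mean of the 3 edited lines with that of both controls, edgeR called 0 (1.51% of all genes), with 2 unadjusted, DESeq2 0 and voom 7. For this contrast DESeq2 called 928 of all genes and voom 7328.

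Leaving out guide 2 replicate 2 raised most counts of members, and the shares of all genes called with them. Guide 1 against the empty vector then had 5 members lower (EGFR, AREG, HBEGF, TGFA and NRG1), with 11.7% of the 17849 genes tested called lower. Guide 2 had 3 lower (AREG, HBEGF and TGFA; 9.42% of all genes lower) and both guides 1 (HBEGF; 4.99% lower). Parental cells had AREG and HBEGF lower and NRG1 higher than the empty vector (8.68% of all genes lower, 5.24% higher). Against parental cells, guide 1 had 3 lower (EGFR, TGFA and NRG1; 7.47% of all genes lower) and guide 2 had TGFA and NRG1 lower (3.05%), while both guides had AREG higher (1.55%) and NRG1 lower (1.06%). Guide 1 against guide 2 still had 0 members, with 0.162% of all genes called and 1 member at an unadjusted p under 0.05. Both guides had AREG and TGFA higher than guide 1 (2.31% of all genes higher) and AREG higher than guide 2 (0.98%). For the edited mean against the control mean, 5 members were lower and ERBB2 was higher by 0.22 (edgeR adjusted p = 0.0364, SE 0.0652), with 11.4% of all genes lower and 6.63% higher. With the replicate number as a block, guide 1 against the empty vector had edgeR adjusted p of 0.0357 (EGFR), 0.000387 (AREG), 0.000513 (HBEGF), 0.0006045 (TGFA) and 0.0314 (NRG1). EGFR in guide 2 against the empty vector went from 0.0518 without the block to 0.0436 with it.

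Levels of TGFA were high in the libraries with high levels of epithelial junction transcripts. CDH1, DSP and CLDN1, which encode adhesion proteins of epithelial junctions, summed to 107 to 120 CPM in guide 2 replicates 1 and 3, 119 to 142 CPM with guide 1 and 297 to 367 CPM with both guides. Their sum was 175 to 571 CPM in parental cells, 580 to 1114 CPM with the empty vector and 922 CPM in guide 2 replicate 2. The 6 libraries with the most TGFA were the 6 with the highest junction sums, at 411 CPM or more, and the other 9 had at most 367 CPM. HBEGF did not follow the same order, since guide 2 replicate 2 had a junction sum within the empty-vector range and less HBEGF than any empty-vector library. The part of these transcripts in the differences of the members was not tested.

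**Figure D4:**
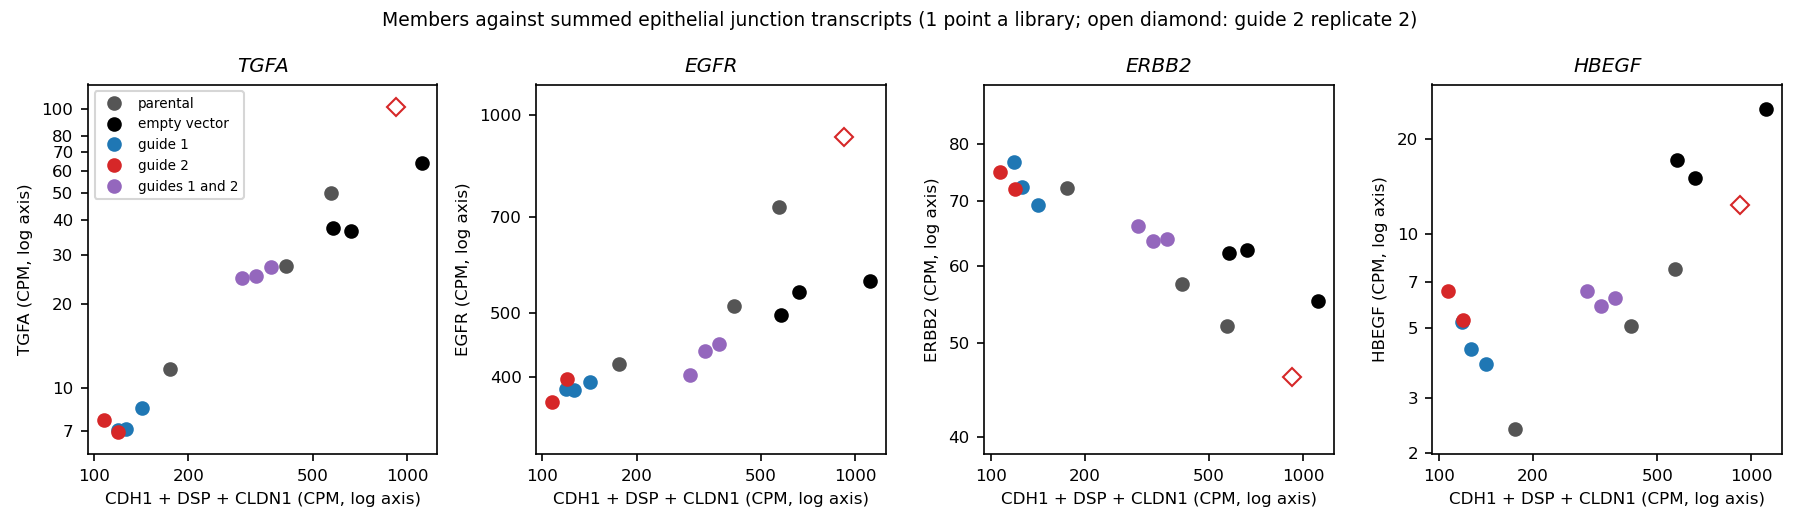
CPM of TGFA, EGFR, ERBB2 and HBEGF against the summed CPM of CDH1, DSP and CLDN1 in each library (both axes log), coloured by genotype, with guide 2 replicate 2 as an open diamond. Libraries with junction sums of 411 CPM or more hold the 6 highest TGFA levels, whereas ERBB2 is lowest in guide 2 replicate 2.

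By the 3 genes most alike in log2 CPM over the 15 libraries (Pearson), HBEGF was closest to RAP2B (0.972), IER3 (0.963) and LRRC57 (0.963). TGFA was closest to CKMT1A (0.992), MPZL3 (0.991) and ESRP2 (0.991), and without guide 2 replicate 2 to KLC3, CRB3 and LSR. EGFR was closest to GOLGA7 (0.988), TRIM29 (0.981) and EPCAM (0.977), ERBB2 to TMEM101 (0.979), HHLA3 (0.972) and SOX13 (0.970), and ERBB3 to CRY2 (0.901), HCG18 (0.896) and HCG20 (0.888). AREG was closest to EYA2 (0.959), TGM1 (0.956) and ANKRD6 (0.949), NRG1 to TRIM25 (0.948), CWC22 (0.941) and GPSM2 (0.941), and EPGN to YIF1A (0.965), ZNF316 (0.933) and AP1S1 (0.932). The highest values were lower for EREG, at 0.777 (PSME2P2), and BTC, at 0.797 (C1orf226). Without guide 2 replicate 2 the closest gene became MFSD4B for EGFR (0.983), PDCD6IP-DT for ERBB3 (0.939) and HSPA5 for AREG (0.946). It became PAWR for EREG (0.810), TRIM37 for BTC (0.871) and GPSM2 for NRG1 (0.942). HBEGF, ERBB2 and EPGN kept RAP2B (0.971), TMEM101 (0.967) and YIF1A (0.914). These libraries share genotype and the spread on the first component.

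Of 41 other genes of the pathway, 39 were tested, and with all libraries 2 rose and 6 fell in guide 1, 2 rose and 3 fell in guide 2, and 2 rose and 2 fell in parental cells against the empty vector. Of all tested genes, 1.31% were called higher and 4.57% lower in guide 1, 1.2% and 2.73% in guide 2 and 1.53% and 2.84% in parental cells. This fit held no block on replicate number. With the block, the guide 1 calls of NRG4, ADAM17, LRIG1 and IER3 held, and those of RHBDF2, RNF41, PIK3CA and SPRY2 did not. Calls over all genes in guide 1 went from 1026 to 567 with it. Both guides had 0 edgeR calls against the empty vector, with 11 genes at an unadjusted p under 0.05, 7 called by DESeq2 and 19 by voom. There edgeR called 0.962% of all tested genes in either direction, DESeq2 called 754 genes and voom 4666. The medians of the 39 genes were -0.05, -0.08, -0.12 and -0.08 in log2 for guide 1, guide 2, parental cells and both guides, beside medians over all tested genes of 0.02, 0.03, 0.01 and 0.00. Without guide 2 replicate 2 the calls against the empty vector were 4 higher and 12 lower in guide 1, 2 and 12 in guide 2, 2 and 6 with both guides and 4 and 9 in parental cells. The shares of all tested genes called higher and lower in that fit were 6.47% and 11.7% in guide 1, 5.04% and 9.42% in guide 2, 1.71% and 4.99% with both guides and 5.24% and 8.68% in parental cells. With all libraries, both guides had 1 gene, NRG4, higher than guide 1 and than guide 2, beside 0.189% and 0.103% of all tested genes, and the edited mean had 2 lower than the control mean, beside 1.19%. The remaining 4 comparisons had 0 edgeR calls, although 7 to 13 genes in each had an unadjusted p under 0.05, DESeq2 called 0 to 4 and voom 7 to 25. In these 4 comparisons DESeq2 called 137 to 657 of all tested genes and voom 3524 to 9230. No share of all genes under the unadjusted cut stands beside the unadjusted counts. Of these 21 calls, 4 held in each of the 15 fits that leave out 1 library: NRG4 and IER3 in guide 1 and FOSL1 and SPRY2 in guide 2, all against the empty vector. The other 17 were each lost in at least 1 such fit, where their highest edgeR adjusted p ran from 0.0508 to 0.217.

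Among the 5 remaining family members, ERBB4 was detected at no more than 0.0217 CPM, below the 3 counts taken as the floor (0.038 to 0.065 CPM). EGF was at 0.254 to 0.940 CPM, NRG2 at 0.0362 to 0.727 CPM and NRG3 at up to 0.239 CPM. NRG4 (neuregulin 4, a ligand of ERBB4) was low, at 0.808 ± 0.174 CPM with the empty vector, 0.189 ± 0.0408 CPM with guide 1, 0.200 ± 0.0739 CPM with guide 2 and 1.15 ± 0.216 CPM with both guides (SD, n = 3). Parental and empty-vector libraries together ran from 0.172 to 1.01 CPM, so unedited cells reached down to the single-guide levels. Against the empty vector NRG4 fell in guide 1 (log2 fold change -2.09, edgeR adjusted p = 0.00967, SE 0.383) and guide 2 (edgeR adjusted p = 0.0143, SE 0.382), was lower in parental cells (-1.53, edgeR adjusted p = 0.0386, SE 0.373), and did not pass for both guides. The parental call held in 5 of 15 fits that leave out 1 library (edgeR adjusted p up to 0.147) and in 4 of 7 alternative settings.

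Of 5 genes of ligand shedding, ADAM17, the main sheddase of AREG, HBEGF and TGFA, fell in guide 1 against the empty vector, from 68.8 ± 1.71 to 50.5 ± 2.75 CPM (log2 fold change -0.46, edgeR adjusted p = 0.0129, SE 0.0888). ADAM10, which sheds BTC, fell in guide 2 (-0.36, edgeR adjusted p = 0.0247, SE 0.0790), from 191 ± 8.90 to 150 ± 5.74 CPM. The guide 2 call of ADAM10 held in 11 of 15 fits that leave out 1 library (edgeR adjusted p up to 0.115) and in 5 of 7 alternative settings. ADAM10 was at 144 to 173 CPM in the 9 edited libraries and 181 to 197 CPM in the 6 unedited ones. The share of all genes that separate in this way is not given here. Its edited mean was lower than the control mean by -0.28 (edgeR adjusted p = 0.0202, SE 0.0507), a call that held in 12 of 15 such fits (up to 0.0776). RHBDF2, which carries ADAM17 to the cell surface, was called in guide 1 at -0.92 (edgeR adjusted p = 0.0478, SE 0.249) and not under the block on replicate number (0.0884).

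Of 9 receptor inhibitors and ubiquitin ligases, LRIG1 fell in guide 1 against the empty vector (log2 fold change -1.18, edgeR adjusted p = 0.00957, SE 0.216), from 9.22 ± 1.19 to 4.10 ± 0.356 CPM. RNF41, a ubiquitin ligase for ERBB3, rose by 0.31 (edgeR adjusted p = 0.0461, SE 0.0819; under the block, 0.0777). Of 11 adaptors and proximal effectors, PIK3CA fell in guide 1 by 0.44 (edgeR adjusted p = 0.0251, SE 0.102; under the block, 0.0524) and GAB1 in guide 2 by 0.53 (edgeR adjusted p = 0.0368, SE 0.128).

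Of 11 transcripts listed as induced by EGF, 1 rose and 1 fell in guide 1, and 2 rose in guide 2, beside 1.31% of all tested genes higher and 4.57% lower in guide 1 and 1.2% higher in guide 2. In guide 1, IER3 fell by 1.22 (edgeR adjusted p = 0.00756, SE 0.210), while SPRY2, a feedback inhibitor of receptor signalling, rose by 0.37 (edgeR adjusted p = 0.0409, SE 0.0945; under the block, 0.0738). In guide 2, FOSL1, an AP-1 subunit, rose by 0.86 (edgeR adjusted p = 0.00460, SE 0.131) and SPRY2 by 0.61 (edgeR adjusted p = 0.00524, SE 0.0947). Parental cells were also higher than the empty vector in FOSL1 and SPRY2 and lower in IER3, at 0.56, 0.44 and -0.91 (edgeR adjusted p of 0.0307, 0.0234 and 0.0300). The medians of the 11 genes against the empty vector were 0.04 in guide 1, 0.23 in guide 2 and -0.47 in parental cells.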

How the data were processed

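Poly(A) RNA of 15 libraries (5 genotypes, 3 replicates each) was sequenced after KAPA mRNA HyperPrep library preparation, per the labels. Reads were trimmed with Trim Galore 0.6.0 and aligned with STAR 2.7.8a, with GRCh38 as the build, per the submitters' processing notes; the counting program and its use of strand are not given in the sources used here. The deposited files hold whole-number counts for each gene and, separately, CPM values that equal the count over the library total. Symbols were matched for 60357 of 60721 identifiers, and positions and exon lengths come from GENCODE release 29.

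Counts were tested with edgeR 4.0.16 in R 4.3.3: filterByExpr (17457 genes), TMM scaling, and quasi-likelihood F tests, two-sided, in a single model of genotype means over the 15 libraries (10 residual degrees of freedom). Benjamini-Hochberg adjustment ran over all tested genes, with calls at an adjusted p under 0.05. SE is the log2 fold change over the square root of F. Intervals and floors of 3 counts cover counting error only. Alternatives were RLE scaling, no filter, the replicate number as a block, DESeq2 1.42.0, voom with sample quality weights (limma 3.58.1), the compared genotypes alone and each library left out. Leaving out 2 libraries together was added after the data were seen.

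The members and gene lists were chosen with earlier results of these data known; 1 gene of the pathway list and 1 marker are not reported here. Named genes are the members, NF1, the genes of the fixed pathway list that were called, and the 3 genes most alike to each member. Same-numbered libraries of guide 1 and the empty vector deviated together (correlations 0.136 to 0.28), which pairs them by the rule used; the other comparisons had no such pairing, and the mean over 30 pairs was -0.05. On simulated counts with 200 genes changed 2-fold in guide 1 against the empty vector (17144 genes tested), 42% of the changed genes were recovered and 6.7% of calls were false. Each gene was drawn independently there. The simulation therefore held no shift shared by many genes of 1 library, such as that of guide 2 replicate 2, and gives no error rate for it.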

Additional observations from a re-analysis of the deposited data

Results flagged for a closer look

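Edited lines differed from each other in 2 of the genes named. NF1 itself was higher with guide 1 than with guide 2 (log2 fold change 0.69, SE 0.0880, edgeR adjusted p = 0.0122) and lower with both guides than with guide 1 (-0.76, SE 0.0882, edgeR adjusted p = 0.00411). NRG4 was higher with both guides than with guide 1 (2.57, SE 0.382, edgeR adjusted p = 0.0169) and than with guide 2 (2.48, SE 0.382, edgeR adjusted p = 0.0260), with the 3 libraries of both guides at 0.912 CPM or more and the 6 of single guides at 0.275 CPM or less. Under the removal of single libraries the NF1 difference of guide 1 from guide 2 and both NRG4 differences were each lost at least once, with edgeR adjusted p of up to 0.101 for NF1 and 0.161 for NRG4. Of the 10 receptors and ligands, edgeR called 0 between edited lines with all libraries, with 3, 1 and 1 at an unadjusted p under 0.05 for guide 1 against guide 2, both guides against guide 1 and both guides against guide 2. DESeq2 called 0 in each and voom 1, 6 and 5, beside 3524, 8113 and 2650 of all genes in voom. The unadjusted counts have no share of all genes beside them. Groups of 3 were too small for the check on single outlying samples.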

How the results depend on the processing

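Counts of called members depended on guide 2 replicate 2 and on how its spread entered the fit. RLE scaling and the replicate block changed none of the 11 counts: HBEGF in guide 1 against the empty vector was -2.12 with the block (edgeR adjusted p = 0.0270), and in parental cells -1.98 (0.0403). Without the filter the counts for guide 1 and for both guides against the empty vector were 2 and 1. DESeq2 gave 2, 1 and 1 for guide 1, guide 2 and both guides against the empty vector and 1 for guide 1 against parental. Voom with sample weights gave 7, 5, 6 and 6 for guide 1, guide 2, both guides and parental against the empty vector, 6, 6 and 3 for the same edited lines against parental, 1 for guide 1 against guide 2, 6 and 5 for both guides against guide 1 and guide 2, and 7 for the edited mean. The compared genotypes alone gave 5, 5 and 2 for guide 1, both guides and parental against the empty vector, 1 and 1 for guide 1 and both guides against parental, and 2 for both guides against guide 1. Excluding guide 2 replicate 2 and parental replicate 1 together gave 6, 5, 4 and 5 against the empty vector (guide 1, guide 2, both guides, parental), 2, 2 and 2 against parental, 2 and 2 for both guides against each single guide, and 5 for the edited mean.

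Leaving out 1 library moved the counts between 0 and 5 (guide 1), 0 and 3 (guide 2), 0 and 1 (both guides) and 0 and 3 (parental) against the empty vector. The ranges were 0 to 3, 0 to 2 and 0 to 2 against parental, 0 to 0, 0 to 2 and 0 to 1 between edited lines, and 0 to 6 for the edited mean. Over all genes, the same removals gave 215 to 3236, 170 to 2581, 21 to 1196 and 145 to 2484 calls against the empty vector, in the same order. Against parental, calls over all genes were 6 to 2591, 2 to 1064 and 4 to 467. Between edited lines they were 2 to 593, 4 to 827 and 2 to 327, and for the edited mean 59 to 3213. TGFA in guide 2 against parental was 0.39 with all libraries and reversed to -1.75 under voom (adjusted p = 0.000648) and to -1.38 without both libraries (edgeR adjusted p = 0.0441), with -2.01 to 1.01 over single removals. Over those removals TGFA in guide 2 against the empty vector ran from -2.68 to 0.21, AREG in both guides against guide 2 from -0.084 to 0.75, and NRG1 in guide 2 against parental from -0.85 to 0.20. The block changed calls of pathway genes: besides those given in the report, GAB1 in guide 2 (0.0658), NRG4, FOSL1 and IER3 in parental cells (0.0619, 0.0641 and 0.0563), NRG4 for both guides against guide 2 (0.0611) and ADAM17 in the edited mean (0.0900) were not called by edgeR with it. Over all genes, guide 1 against the empty vector had 1026 calls with all libraries, 567 with the block, 1937 in DESeq2 and 7424 in voom. Across the comparisons, DESeq2 called 137 to 1937 of all genes and voom 2650 to 9230. The compared genotypes alone gave 0 to 3054 calls over all genes, and excluding both libraries together gave 63 to 4200.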
